A study of Mus musculus with 5 samples.

Results

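The genes described here were 9 homeobox genes of mouse hematopoietic stem cells (HSCs), Hoxa5, Hoxa7, Hoxa9, Hoxa10, Hoxb4, Hoxb5, Meis1, Pbx2 and Pbx3. They were chosen by symbol from a table of 24046 genes, with earlier results of these data known, and all 9 were among the 13661 genes tested, which reached 10 or more in 2 or more of the libraries. The table came from bulk RNA sequencing of HSCs that either had or lacked SYNCRIP, an RNA-binding protein. All donor marrow was Syncrip flox/flox. It carried no Cre transgene in the 3 wild-type libraries (Mx1 Cre-, here WT 1, WT 2 and WT 3) and Cre under the Mx1 promoter in the 2 knockout libraries (Mx1 Cre+, here KO 2 and KO 3). The marrow of young adult donors had been transplanted into irradiated CD45.1 congenic recipients. Recipients of both genotypes received polyinosinic:polycytidylic acid (pIpC), an interferon inducer that switches on Mx1 Cre, 6 weeks after the transplant, and cells were sorted at 9 weeks as CD45.2+, Lin-, Sca1+, cKit+, CD150+ and CD48-. Mx1 Cre acts in blood cells generally, so loss of Syncrip was not limited to HSCs. The study states in general that its experiments had independent biological replicates, but the sources used here did not tie each library to its own mouse, so p-values measure the spread between these libraries, which may be technical in part.

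HOX proteins are transcription factors that bind DNA through a homeodomain, and in vertebrates their genes lie in 4 clusters, HoxA to HoxD. On their own they bind short and common sites, and much of their specificity comes from partners of the TALE homeodomain class, which includes the PBX and MEIS families. In blood, genes of the HoxA and HoxB clusters together with Meis1 are active in stem and early progenitor cells and are switched off as cells mature. Forced expression of Hoxb4 expands HSCs, Hoxb5 marks a subset of long-term HSCs, and Hoxa9 with Meis1 drives acute myeloid leukemia, with PBX3 as a further partner.

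The TALE class is named for a loop extension between the first helices of its homeodomain, and HOX and TALE proteins also differ in the recognition helix, which sits in the major groove of DNA. The coding bases of homeodomain codons 48 to 57, a stretch of this helix, are shown for the 9 genes so that the partners can be told from the HOX genes, with the codon of position 50 in capitals. They were read from GENCODE M21 transcripts (GRCm38) and run 5′ to 3′ on the coding strand.
Hoxa5: tggttcCAAaacaggaggatgaagtggaaa
Hoxa7: tggttcCAGaatcggcgcatgaagtggaag
Hoxa9: tggttcCAGaaccgcaggatgaaaatgaag
Hoxa10: tggtttCAGaatcgcaggatgaaactgaag
Hoxb4: tggttcCAGaatcggcgcatgaagtggaaa
Hoxb5: tggttcCAGaaccgtcgcatgaagtggaag
Meis1: tggtttATTaatgcccggagaagaatagtg
Pbx2: tggttcGGTaacaagcgaattcgctacaag
Pbx3: tggtttGGCaacaaacgaatcaggtacaag
The marked codon was CAA or CAG in the 6 HOX genes, ATT in Meis1 and GGT or GGC in the PBX genes. Over the 180 bases of the homeobox, the 15 pairs of HOX genes were 59.4% to 83.9% identical, with Hoxa5 and Hoxb5 the closest pair and Hoxa10 and Hoxb4 the most distant. Pbx2 and Pbx3 were 82.5% identical over 189 bases, because the TALE homeobox is longer. Reads that fall wholly in these stretches could be hard to place, while the rest of each transcript differs.

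The HOX genes lay in a pair of clusters. Hoxa5 (6:52201754-52204587), Hoxa7 (6:52214491-52221854), Hoxa9 (6:52223100-52231089) and Hoxa10 (6:52231197-52240854) lay on the minus strand of chromosome 6. Hoxb5 (11:96303336-96306121) and Hoxb4 (11:96318267-96321638) were on the plus strand of chromosome 11, which also holds Meis1 (18879817 to 19018985, minus strand). Pbx2 was on chromosome 17 (34591266 to 34597400, plus strand) and Pbx3 on chromosome 2 (34171457 to 34373142, minus strand). All 9 were protein coding in GENCODE M21. The antisense gene Hoxaas3 overlaps Hoxa5 and the end of Hoxa7, and since the library kit does not mark strand, reads of either strand could not be told apart there. Hoxa5 also lies within the annotated span of Hoxa3 (6:52169062-52213336) on the same strand. Whether exons of these 2 genes overlap was not checked.

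Syncrip itself checked the genotypes, with normalized counts of 1944, 1440 and 1794 in WT against 294 and 343 in KO (-2.43 ± 0.22 on the log2 scale, SE here and below, limma adjusted p = 0.0352, and 0.164 to 0.210 without WT 1, WT 2 or WT 3). Recovered depth ran from 12539599 reads in KO 3 to 22779536 reads in WT 3, with the lower totals in KO. All 9 markers of the HSC gate were above 3 reads in each of the 5 libraries, with sums of 15291 to 22579. KO 2 stood apart in adipose genes. The 10 adipose genes summed to 28619 there against 266 to 405 in WT and 159 in KO 3, and Ucp1, a brown fat gene, was at 5622 in KO 2 and listed at 0 in the other 4 libraries. The part of this RNA in the values below was not tested. In bulk samples, fewer cells of a type and less RNA per cell cannot be told apart.

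The first comparison asked whether the HOX genes and their partners differed in level between HSCs with and without SYNCRIP. KO 3 held the highest value of all 5 libraries for each of the 9 genes, and 7 of them were at least 2-fold above the WT mean there. In KO 2 none of the 9 was 2-fold or more above the WT mean, Pbx3 was more than 2-fold below it, and 3 (Hoxa5, Hoxa7 and Pbx2) exceeded all WT values. Across all genes tested, 35% were highest in KO 3, 16.1% were at least 2-fold above the WT mean in KO 3, 6.55% were so in KO 2, and 32.8% exceeded all WT values in KO 2. None of the 9 passed the limma test (adjusted p under 0.05 and at least 2-fold), a call made for 0.00732% of the genes tested. At an unadjusted p under 0.05, limma gave 1 of the 9 (Hoxa7), against 27.8% of all genes, and DESeq2 on the recovered reads also called Hoxa7 alone, where 4.11% of the 12170 genes it could adjust were called higher.

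**Figure D1:**
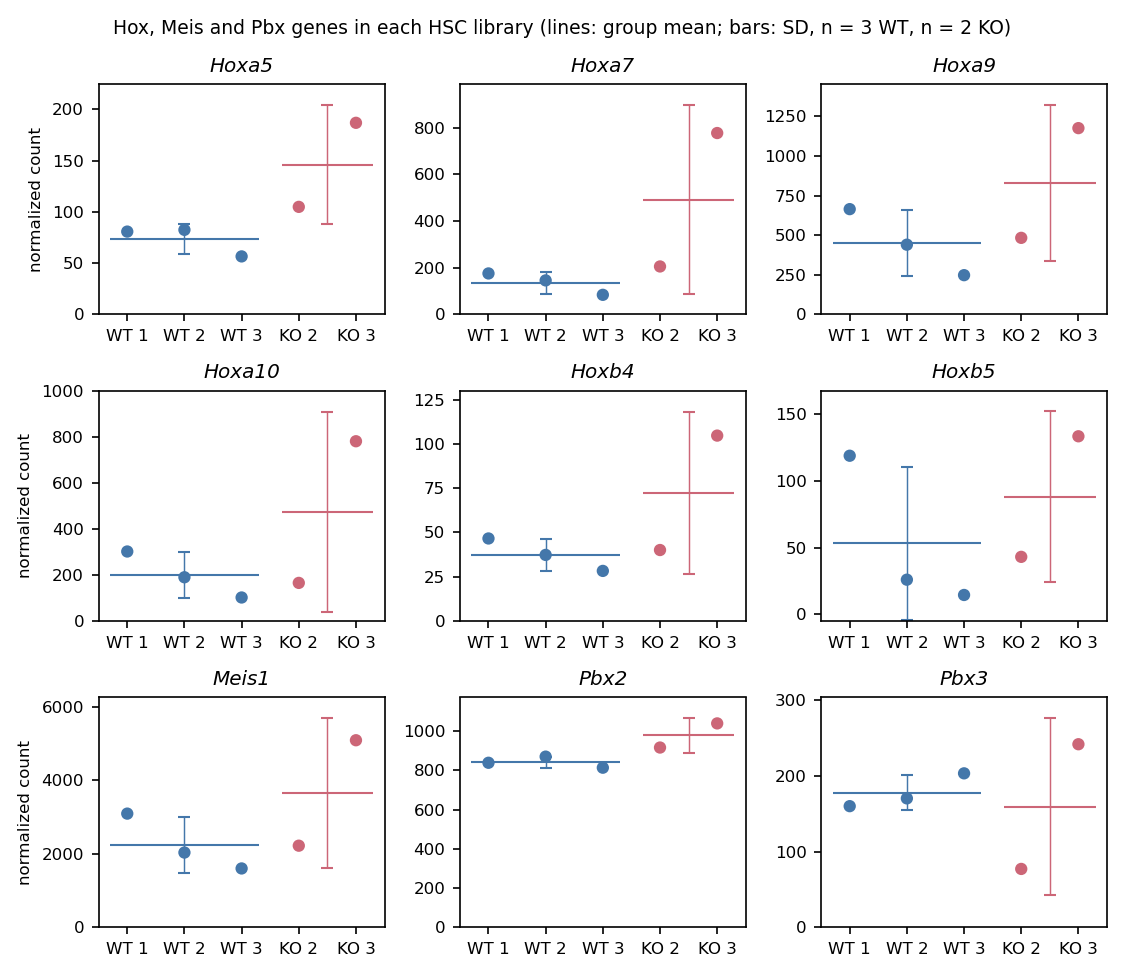
Normalized count (y axis, linear) of each of the 9 genes in the 5 HSC libraries (x axis), blue for WT and red for KO. Horizontal lines are group means and bars the SD (n = 3 WT, n = 2 KO). The red point of KO 3 is the highest of each panel, and KO 2 lies at or near the WT points in most.

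Among the HoxA genes, Hoxa7 had the largest fold change. It is one of the HoxA genes that MLL fusions keep active in leukemia. Its normalized counts were 176, 146 and 84.0 in WT 1, WT 2 and WT 3, against 206 in KO 2 and 778 in KO 3. Both KO libraries thus lay above the 3 WT libraries, KO 2 by a small margin and KO 3 4.43-fold over the highest WT value. The KO to WT log2 fold change by limma was 1.62 ± 0.57, with a 95% confidence interval of 0.33 to 2.92 and an adjusted p of 0.119. DESeq2 gave 1.86 with an adjusted p of 0.0133. Without KO 3 the limma fold change of Hoxa7 fell to 0.67 (adjusted p = 0.568).

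Hoxa9, a driver of leukemia with Meis1, stood at 664, 440 and 248 in the WT libraries, at 483 in KO 2 and at 1175 in KO 3. KO 2 lay inside the WT range, whose ends differed 2.68-fold, and KO 3 was 1.77-fold above the highest WT value. Limma fitted Hoxa9 at 0.85 ± 0.48 on the log2 scale (adjusted p = 0.271), at 1.49 without KO 2, 0.21 without KO 3 and 0.48 without WT 3.

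Hoxa10, which controls growth of progenitors, had 302, 190 and 102 in WT, 165 in KO 2 and 782 in KO 3. The KO libraries thus lay on either side of WT 1 and differed 4.73-fold from each other. Limma gave Hoxa10 a log2 fold change of 0.99 ± 0.66 (adjusted p = 0.351), and it turned to -0.12 without KO 3 and was 0.59 without WT 3. Hoxa10 was the only one of the 9 genes on the list of transcripts that an ADAR enzyme fused to SYNCRIP had edited in HSCs, as drawn up by the study. The share of all tested genes on that list was not counted, so nothing is read from this number.

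Hoxa5 counted 80.8, 82.4 and 56.6 in WT, 105 in KO 2 and 187 in KO 3. As for Hoxa7, the groups did not overlap, a pattern seen in 3 of the 9 genes (with Pbx2) and in 23.9% of all genes in this direction. Hoxa5 reached a log2 fold change of 0.95 ± 0.44 in limma, where the adjusted p was 0.199, and 0.53 without KO 3. Its interval ran from -0.06 to 1.95.

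The HoxB genes had the lowest mean counts of the 9 in both groups, although in WT 1 Hoxb5 (119) was above Hoxa5 (80.8). Hoxb4, the gene used to expand HSCs, had 46.6, 37.3 and 28.3 in WT, 40.1 in KO 2 and 105 in KO 3. KO 2 fell within the WT values and KO 3 was 2.25-fold above the highest. For Hoxb4 the log2 fold change was thus 0.81 ± 0.60 (adjusted p = 0.397 by limma), 1.49 without KO 2, 0.13 without KO 3, and 0.44 after each library had been corrected for transcript length and GC content.

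Hoxb5 varied most among controls, with 119 in WT 1, 26.0 in WT 2 and 14.6 in WT 3, an 8.17-fold range. KO 2 had 43.2 and KO 3 had 134, only slightly above WT 1. The error of its log2 fold change, 1.06 ± 0.90 (adjusted p = 0.462 by limma), was the widest of the 9 genes, and edgeR gave 0.70. It was 1.91 without WT 1, 0.44 without WT 3, 1.86 without KO 2 and 0.26 without KO 3. The number of reads behind Hoxb5 was as low as 17 in WT 3, so counting error adds to this spread.

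Meis1, the TALE partner that holds HOX proteins on their targets, had the highest counts of the 9, while per length of transcript it overlapped with Pbx2. It stood at 3096, 2037 and 1604 in WT, 2223 in KO 2 and 5092 in KO 3. Once again KO 2 was inside the WT range and KO 3 outside, 1.64-fold the value of WT 1. Limma put the log2 fold change of Meis1 at 0.64 ± 0.38 (adjusted p = 0.293), at 0.04 without KO 3, at 0.42 without WT 3 and at 1.14 after the length and GC correction.

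Of the PBX genes, Pbx2 was the steadiest, at 838, 870 and 813 in WT, 916 in KO 2 and 1039 in KO 3. The WT libraries spanned 1.07-fold and both KO libraries lay above them, at 1.09-fold and 1.24-fold of the WT mean. A log2 fold change of 0.22 ± 0.19 was fitted by limma (95% confidence interval -0.23 to 0.66, adjusted p = 0.489). Its sign turned to -0.20 after that correction, and it was 0.12 without KO 3.

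Pbx3, a HOXA9 partner in leukemia, was the one gene of the 9 with a negative fold change. It had 160, 170 and 203 in WT, 77.1 in KO 2 and 241 in KO 3, and the KO libraries lay on opposite sides of WT. KO 2 was below all WT values, as were 30.9% of all genes. Limma gave Pbx3 a log2 fold change of -0.37 ± 0.49 (adjusted p = 0.641), which was 0.45 without KO 2 and 0.43 when corrected for length and GC.

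The 9 genes had a median log2 fold change of 0.85, against 0.02 over all genes tested, and 8 of 9 were above 0, against 51.1% of all genes. The medians by library were 0.13 in KO 2 and 1.49 in KO 3 relative to the mean of all WT libraries. WT 1 was at 0.66, WT 2 at 0.07 and WT 3 at -0.65 relative to the other WT libraries. The KO 2 median thus lay between those of the WT libraries, although the baselines differ and the WT one widens the WT values. WT 3 was the lowest of the 5 libraries for 8 of the 9 genes (all but Pbx3), against 20.5% of all genes, and WT 1 was the highest and WT 3 the lowest of the WT libraries for 6 of 9, against 16.9%. Without KO 3, the log2 fold changes of the 9 genes ran from -1.19 (Pbx3) to 0.67 (Hoxa7), and none was called. With KO 2 left out, so that KO 3 alone stood for the genotype and was assumed to vary like the other libraries, limma called 3 of the 9 (Hoxa7 at 2.58, adjusted p = 0.0155, Hoxa10 at 2.11, adjusted p = 0.0413, and Meis1 at 1.23, adjusted p = 0.0445). In that fit 6.7% of all genes were called higher.

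**Figure D2:**
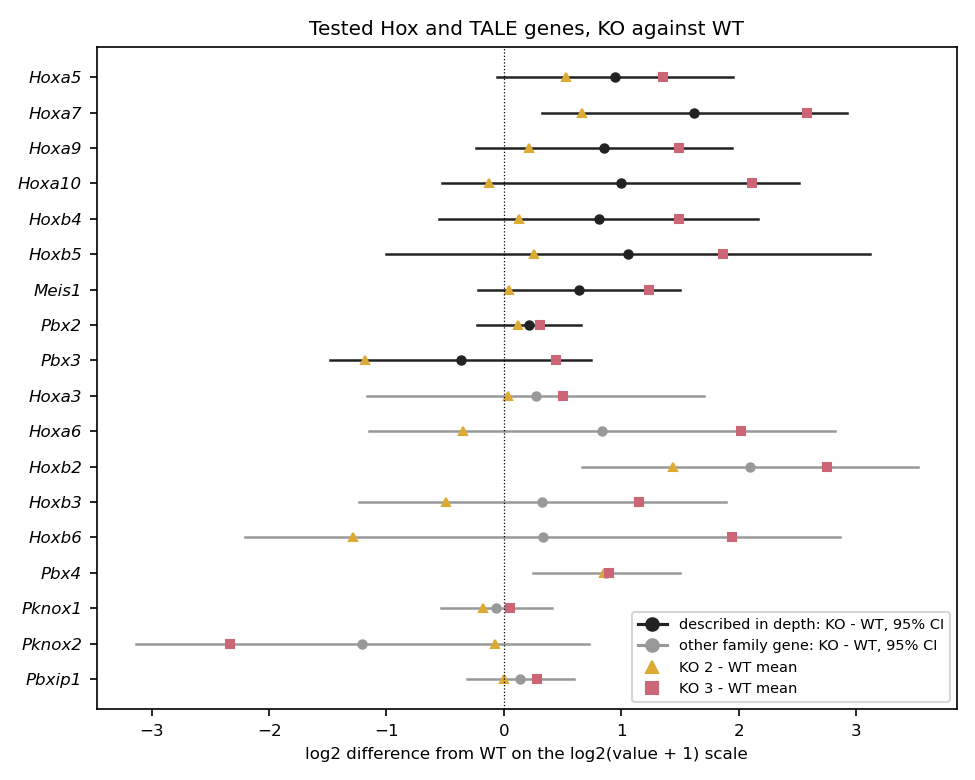
Log2 difference between KO and WT (x axis, log2(value + 1) scale) for the 9 genes (black) and 9 other tested Hox and TALE genes (grey). Points are limma fold changes with 95% confidence intervals, triangles are KO 2 and squares KO 3 less the WT mean. Intervals that leave out 0 are those of Hoxa7, Hoxb2 and Pbx4, and KO 3 lies right of KO 2 for all genes but Pknox2.

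Levels can be compared between genes only per length of transcript. On a scale of normalized counts per kb of the longest transcript, the WT means were 297 for Meis1 and 274 for Pbx2, then 140 for Hoxa9, 77.2 for Hoxa10, 66.5 for Hoxa7, 62.2 for Pbx3, 39.0 for Hoxa5, 19.1 for Hoxb5 and 14.6 for Hoxb4. Neighbours in this order overlapped in their WT ranges, except Pbx2 with Hoxa9 and Pbx3 with Hoxa5. In KO 3, Hoxa7 stood at 383 and exceeded Hoxa9 at 364, while in the WT libraries Hoxa7 was 41.3 to 86.5 and Hoxa9 76.8 to 206. The lead of Hoxa9 over Hoxa7 held in all WT libraries and in KO 2.

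Across the clusters, the 11 HoxA genes summed to 1305, 927 and 528 normalized counts in WT, to 1049 in KO 2 and to 3071 in KO 3. The 10 HoxB genes summed to 451, 194 and 132 in WT, 371 in KO 2 and 1022 in KO 3. The sums for HoxC (0 to 11.3 in WT) and HoxD (0 to 3.47 in WT) were near nothing. KO 3 held 71.4 for HoxC, mostly from Hoxc4 (39.5, 26 reads) and Hoxc6 (25.8, 17 reads). KO 3 was thus the highest library for the HoxA, HoxB and HoxC sums, and KO 2 stayed within the WT range for the first 2 clusters.

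**Figure D3:**
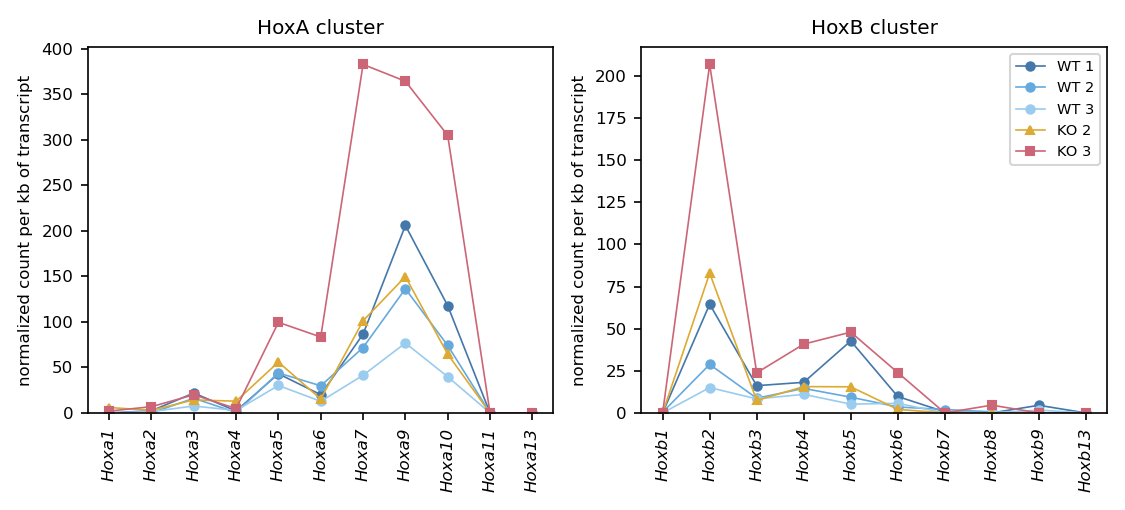
Normalized count per kb of transcript (y axis, linear) for each HoxA gene (left) and HoxB gene (right), in gene number order, with 1 line per library. Hoxa7, Hoxa9 and Hoxa10 form the peak of the HoxA cluster in all libraries and Hoxb2 that of the HoxB cluster. Lines only join the values of a library.

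The rest of both families was taken whole, 40 genes, of which 10 passed the filter. None of the 10 passed the limma test, and 8 had a fold change above 0, with a median of 0.30. Hoxb2, in the HoxB cluster, had 202, 90.3 and 47.1 in WT, 260 in KO 2 and 648 in KO 3. Both KO libraries exceeded all WT values (2.10 ± 0.63 on the log2 scale, limma adjusted p = 0.0941, DESeq2 adjusted p = 0.0151).

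Pbx4, a PBX gene known mostly from the testis, had KO libraries close to each other, with 463 in KO 2 and 475 in KO 3 against 217, 312 and 246 in WT (0.87 ± 0.28 on the log2 scale, limma adjusted p = 0.102, DESeq2 adjusted p = 0.0311 but short of 2-fold). Pbxip1, which encodes a protein that interacts with PBX proteins, had a log2 fold change of 0.14. Pknox1 and Pknox2, the PREP branch of the TALE class, had -0.07 and -1.21. Pknox2 was low, at 25.0, 28.6 and 58.3 in WT, 32.9 in KO 2 and 6.07 in KO 3. Hoxa3 (0.27), Hoxa6 (0.84), Hoxb3 (0.33) and Hoxb6 (0.33) had limma adjusted p-values of 0.549 or more.

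Regulators of the HOX genes were read next, since MLL complexes hold Hox chromatin open and Polycomb complexes close it. Of 19 genes listed, 16 were tested, 7 had a fold change above 0 and 9 below 0 (median -0.16), and none passed the limma test. The highest were Cbx2, a Polycomb reader of methylated histone H3 (0.98, limma adjusted p = 0.0887), and Mllt1, also known as ENL (0.71, 0.115). The lowest were Rbbp5, a core subunit of MLL complexes (-0.83, 0.101), and Bmi1, a Polycomb gene needed for HSC self-renewal (-0.59, 0.214). Both KO values lay above all WT values for 4 of these 16 genes and below them for 8, against 23.9% and 23.2% of all genes.

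Of 16 known targets of HOXA9 and MEIS1, 15 were tested, with a median of 0.08, 9 above 0 and none past the limma test. Sox4, a leukemia-linked transcription factor gene, was at 2818, 2829 and 1566 in WT, 2852 in KO 2 and 14818 in KO 3 (log2 fold change 1.49, limma adjusted p = 0.151). KO 2 barely exceeded the highest WT library there. Pim1, a survival kinase gene, had 0.90, and Hif1a (-0.55) and Trib2 (-0.65) were the lowest.

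Of 8 non-coding genes of the clusters, 2 were tested, none passed the limma test, and both were highest in KO 3 and lowest in WT 3. The antisense gene Hoxaas3 had 20.8, 13.9 and 9.43 in WT, 21.6 in KO 2 and 44.0 in KO 3 (log2 fold change 1.09, limma adjusted p = 0.366), and reads from the genes it overlaps could be among these. Mir196b, which lies inside an annotated exon of Hoxa9, had 15.8, 11.3 and 4.28 in WT, 15.4 in KO 2 and 74.4 in KO 3 (1.77, limma adjusted p = 0.257). These are reads of the locus and not of the mature miRNA, which is given because it is known to repress HOX mRNAs. Its sequences, with the seed (bases 2 to 8) in capitals, were taken from RefSeq (GRCm38.p6).
miR-196b-5p: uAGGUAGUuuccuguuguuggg
miR-196b-3p: uCGACAGCacgacacugccuuc
The arms lie at 6:52230129-52230150 and 6:52230094-52230115 on the minus strand.

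Among 20 other transcription factors of HSCs, 19 were tested, 15 had a fold change above 0 (median 0.43) and none passed the limma test. Prdm16, needed for HSC maintenance, was highest at 1.56 (limma adjusted p = 0.148), with 286, 254 and 74.6 in WT, 331 in KO 2 and 820 in KO 3. Nkx2-3, a homeobox gene, followed at 1.48, with 435, 289 and 156 in WT, 323 in KO 2 and 1757 in KO 3. Zfx (-0.58) was the lowest. The median of the list was 0.13 in KO 2 and 0.83 in KO 3.

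The markers of the gate itself varied across the libraries as many of the 9 genes did. Of the 9 markers, 6 were highest in KO 3 and 6 lowest in WT 3, against 35% and 20.5% of all genes tested. Procr, the gene of the HSC marker EPCR, had 439, 243 and 152 in WT, 281 in KO 2 and 527 in KO 3. Fgd5, which marks HSCs, had 318, 223 and 67.7 in WT, 90.5 in KO 2 and 598 in KO 3. Ptprc, the gene of CD45, did not follow, with 4635, 3735 and 4550 in WT, 2010 in KO 2 and 1271 in KO 3. Ly6a (857, 298 and 279 in WT, 703 in KO 2, 670 in KO 3) was highest in WT 1. Kit, with 9916, 10741 and 8119 in WT, 8007 in KO 2 and 10259 in KO 3, was highest in WT 2. Both Kit and Tek (237) were lowest in KO 2. Endothelial markers summed to 12546 in KO 3, 5641 in KO 2 and 2415 to 4755 in WT. Of the 8, Plvap, Vwf and Tie1 were highest in KO 3, and Vwf and Tie1, which HSCs also express, made up most of the KO 3 sum. Plvap was at 235, 461 and 309 in WT, 340 in KO 2 and 515 in KO 3. Cdh5, a defining endothelial marker, had 0 to 32.1 in WT, 54.5 in KO 2 and 1.52 in KO 3. Stroma markers summed to 570 to 2779 in WT, 962 in KO 2 and 349 in KO 3. In KO 2, Col3a1 and Sparc exceeded all WT values, while Col1a2, Pdgfrb and Spp1 were below all of them. Gate-negative and lineage markers summed to 274818 to 457332 in WT, 400631 in KO 2 and 250432 in KO 3, and this sum was nearly all Mpo and Elane, genes of granule enzymes in myeloid progenitors. Elane was at 71505 to 100807 in WT, 107246 in KO 2 and 71897 in KO 3. Cd79a, a B cell gene, was highest in KO 3 (125 against 39.9 to 112 in WT), while Cd48 and Itgam were below all WT values in both KO libraries. The part of these differences in the values of the 9 genes was not tested.

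**Figure D4:**
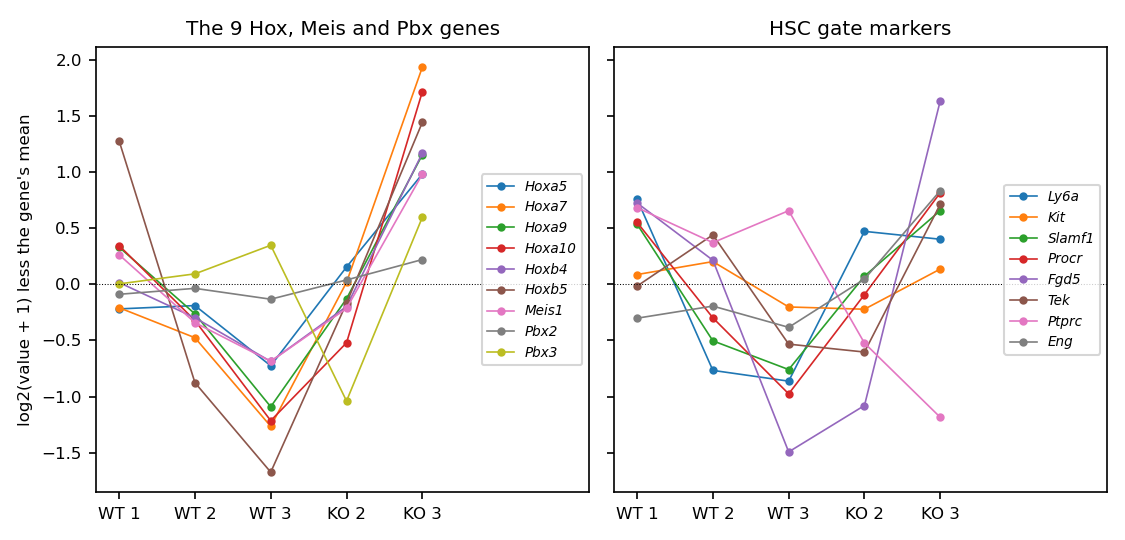
Log2(value + 1) less each gene's mean over 5 libraries (y axis) for the 9 Hox, Meis and Pbx genes (left) and 8 of the HSC gate markers (right) in each library (x axis). Lines only join the values of a gene. On both sides most genes are lowest in WT 3 and highest in KO 3.

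Genes with the most similar pattern over the 5 libraries were found as those with the smallest root mean square difference of centred log2 values, among 10544 tested genes with a mean of at least 100. Tgm2, which encodes a transglutaminase, followed Hoxb4 most closely (0.016), and Drg2 followed Pbx2 (0.016). The nearest genes were Cxxc5 for Hoxa7 (0.067), Fyn for Hoxa9 (0.10), Basp1 for Hoxa10 (0.12), Tmem259 for Hoxa5 (0.044), Raver2 for Hoxb5 (0.19), AI854703 for Meis1 (0.062) and Socs3 for Pbx3 (0.16). Among the 9 genes themselves, Hoxb4 and Meis1 were the closest pair (0.14) and Hoxb5 and Pbx3 the most distant (1.27). All points share the same 5 libraries, and the measure is a description. Each match is the closest of 10544 genes over only 5 libraries, and counting error was not taken into account. Hoxb4, for example, had 33 to 69 reads per library.

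The promoter windows were searched for binding motifs of the family. Windows of 250 bases before to 50 after the start were at hand from RefSeq (GRCm38.p6) for 7 of the 9 genes, 8 windows in all, and not for Hoxb5 and Pbx3. The PBX-HOX motif TGATNNAT and the MEIS motif TGACAG were searched on both strands. Neither was found in the 8 windows, while 8.85% and 19.2% of all 32851 windows held them. No match says only that these letters are not in these windows.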

How the data were processed

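RNA was sequenced from 5 libraries of sorted HSCs made with a low-input SMART-Seq v4 kit, which does not mark strand. The authors deposited 1 table of normalized signal, in which a value is a read count divided by its library's size factor. Per the labels, STAR, featureCounts and DESeq2 were used with mm10, and versions, annotation and use of strand are not given in the sources used here. The authors also deposited their own comparison (log2 fold changes and p-values), which was not used. Values were whole multiples of 1 step per library (0.833 to 1.52), and dividing by it gave whole reads for 100% of values within 0.001. These recovered reads served only the alternatives DESeq2 (1.42.0) and edgeR (4.0.16). The reads carry no molecular identifiers and may repeat a molecule, so the floor of 3 reads covers counting error only.

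The 9 genes, the lists and the tests were chosen with earlier results of these data known. The main test was limma 3.58.1 (lmFit, eBayes with a trend) in R 4.3.3 on log2(value + 1), which understates changes of low genes, over 13661 genes with a value of 10 or more in 2 or more libraries, with Benjamini-Hochberg adjustment and no covariate. A gene was called at an adjusted p under 0.05 and 2-fold. Medians and counts of lists are descriptions. Named were all 9 genes, every other Hox or TALE gene that was tested (1 of these, and 2 markers, are not reported here), the 2 highest and 2 lowest fold changes of each further list, and the nearest of the 3 most similar genes to each of the 9. Other genes named (gate and other cell markers, and the low Hoxc4 and Hoxc6) were singled out from the marker lists and clusters after their values were seen. Positions, lengths and sequences came from GENCODE M21 (13015 of the tested genes had a length) and RefSeq (GRCm38.p6), matched by symbol. Alternatives covered the pseudocount (0.5, 10), filter, scaling, tool, replicate number as a block, each library left out, and a trend on transcript length and GC content.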

Additional observations from a re-analysis of the deposited data

How the results depend on the processing

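Of the 9 genes, none was called by limma with all libraries, 1 (Hoxa7) was called by DESeq2, and the counts with 1 library left out ran from 0 to 3, the 3 being reached without KO 2. The fits without KO 2 or KO 3 assume that the lone KO library varies like the others. Among the other Hox and TALE genes the count was 0, and it was 1 with DESeq2 and 1 (Hoxb2) with the limit on the adjusted p raised to 0.1; it ran from 0 to 1 with 1 library left out. Hoxa10 turned from 0.99 to -0.12 without KO 3 and reached 2.11 without KO 2. Pbx3 turned to 0.45 without KO 2 and to 0.43 when corrected for length and GC, and was -1.19 without KO 3. Pbx2 turned to -0.20 under that correction. The other 6 genes kept their direction under all 17 alternatives. The cause of these changes was not tested.

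Over all genes limma called 1. The count was 2 with a pseudocount of 10, 2 with edgeR, 1061 with DESeq2, 6 with the replicate block, 807 with an adjusted p limit of 0.1, and 0 with no filter, array weights, voom, or the length and GC correction. Leaving out 1 library gave 0 to 2182, the latter without KO 2. Syncrip stayed between -2.55 and -2.32 with 1 library left out, at -2.43 without a filter, -2.42 with array weights, -2.46 with voom and -1.53 when corrected for length and GC. Its adjusted p was above 0.05 in the last 4 of these (0.0503 to 0.138) and without WT 1, WT 2 or WT 3 (0.164 to 0.210).

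Same-numbered WT and KO libraries deviated from their group means with r of -0.059 and -0.183 over genes, and nothing in the labels pairs them, so the replicate block, in which WT 1 has no partner and adds nothing to the difference, has no basis in the design. It left the count for the 9 genes at 0. Depth limits the genes with few reads, among them Hoxb4, Hoxb5, Hoxb6, Pknox2, Hoxaas3 and Mir196b. KO 2 and KO 3 lay apart for most of the 9 genes, and with 2 KO libraries either one can move a fold change.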
